A study of Homo sapiens with 27 samples.

Results

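Integrins are the heterodimeric adhesion receptors that tie a cell to the proteins outside it, and laminins are heterotrimeric glycoproteins of the basement membrane to which several integrins bind. The integrin and laminin genes were found by a rule on names, which used no measured value: every symbol in the count files made of ITGA or ITGB with a number, of ITGAD, ITGAE, ITGAL, ITGAM, ITGAV, ITGAX or ITGA2B, or of LAMA, LAMB or LAMC with a number. This gave 38 genes of 55882 symbols: 18 integrin alpha genes, 8 integrin beta genes, 5 laminin alpha genes, 4 laminin beta genes and 3 laminin gamma genes. A further 7 symbols of like name (binding proteins, antisense genes, a pseudogene and ITGBL1) were left out by the rule.

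mRNA levels came from the human osteosarcoma line U2OS after stable transduction with the blank pLKO.1 vector (control, which the labels call WT) or with 1 of 2 pLKO.1 shRNAs against the matrix metalloproteinase MMP-2 (sh1 and sh2). All cells, the control included, carried the vector, were plated at 30% confluence, and were collected subconfluent on day -2, confluent on day 0 or overconfluent on day +2. Each of the 9 groups of line and day had 3 libraries of poly(A) RNA, 27 in all. The gene counts of a library summed to between 33580129 and 59374327. Each shRNA line stands for 1 shRNA, so an effect of MMP-2 depletion and any other difference between that line and the control cannot be told apart within a line. In bulk RNA, fewer cells with a transcript and less transcript per cell cannot be told apart either.

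The targeted gene, MMP2, was at 232 ± 14.2 CPM (gene counts scaled to the same normalised library size; mean ± SD, n = 3) in the control on day -2, at 325 ± 6.97 on day 0 and at 490 ± 8.50 on day +2. In sh1 it was at 40.1 ± 6.45, 59.1 ± 6.54 and 97.1 ± 3.15 CPM on the same days, and in sh2 at 144 ± 10.4, 158 ± 3.28 and 278 ± 12.4 CPM, so every shRNA library was below every control library of its day. The osteosarcoma label was compared with 8 mesenchymal and osteoblast lineage markers: COL1A1, SPARC, VIM and RUNX2 were above 29 CPM in every library, whereas COL1A2, SP7 and BGLAP did not exceed 0.683 CPM in any. Replicate 1 of sh1 on day -2 stood apart from the others of its group: the chi-square per degree of freedom between gene counts was 19.3 and 24.6 against replicates 2 and 3, and lay between 4.74 and 13.1 for all other pairs of replicates of a group.

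As background, an integrin alpha chain sets much of the ligand preference of the dimer. ITGA1, ITGA2, ITGA10 and ITGA11 encode collagen-binding chains that pair with the beta chain of ITGB1, ITGA3, ITGA6 and ITGA7 encode laminin-binding chains, and ITGA5, ITGA8, ITGAV and ITGA2B encode chains that read the RGD motif of fibronectin, vitronectin and related ligands. A laminin holds 1 alpha, 1 beta and 1 gamma chain: the product of LAMA1, LAMA2, LAMA4 or LAMA5 usually pairs with those of LAMB1 or LAMB2 and LAMC1. The products of LAMA3 and LAMB3 share a laminin that anchors epithelia.

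Sequences before the start sites of 3 members are shown because these members, together with LAMA4 and ITGB3, had the largest called rises from day -2 to day +2 in the control among members with a mean of at least 1 CPM. The LAMA4 window is not printed because 187 of its bases lie in an annotated exon, ITGB3 had no entry in the table used, and the ITGA2 window holds 12 exon bases. The RefSeq promoter table of GRCh38.p14 held 26 of the 38 members, in 33 windows. The 250 bases before each start were matched exactly to GRCh37, the build of the deposited counts (hg19): LAMA3 at chr18:21452734-21452983 on the plus strand, inside the annotated span of the gene, ITGA2 at chr5:52284932-52285181 on the plus strand, and ITGA11 at chr15:68724503-68724752 on the minus strand. Capitals mark GC boxes (GGGCGG on either strand) and AP-1 motifs (TGANTCA, which reads the same on both strands), which do not overlap each other here.
LAMA3: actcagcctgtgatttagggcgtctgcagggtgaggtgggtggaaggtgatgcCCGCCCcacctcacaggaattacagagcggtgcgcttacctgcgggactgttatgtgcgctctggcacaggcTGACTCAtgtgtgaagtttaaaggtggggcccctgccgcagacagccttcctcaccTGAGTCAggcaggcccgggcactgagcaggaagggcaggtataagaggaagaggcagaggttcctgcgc
ITGA2: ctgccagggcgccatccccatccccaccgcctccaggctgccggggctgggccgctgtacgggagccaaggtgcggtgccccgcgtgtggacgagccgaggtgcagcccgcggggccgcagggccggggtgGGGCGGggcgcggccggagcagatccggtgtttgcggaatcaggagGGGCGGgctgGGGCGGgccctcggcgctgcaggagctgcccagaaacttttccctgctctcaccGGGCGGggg
ITGA11: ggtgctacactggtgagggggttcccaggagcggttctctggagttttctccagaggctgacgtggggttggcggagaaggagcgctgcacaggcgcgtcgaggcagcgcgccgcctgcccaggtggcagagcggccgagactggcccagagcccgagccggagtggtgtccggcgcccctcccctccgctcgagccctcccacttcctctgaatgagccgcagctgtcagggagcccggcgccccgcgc
The LAMA3 window held 2 AP-1 motifs, which begin 125 and 69 bases before the start, and 1 GC box. The ITGA2 window held 4 GC boxes and no AP-1 motif, and the ITGA11 window held neither. Of the 35116 windows of this length in the table, 6.57% held an AP-1 motif and 42.6% a GC box. 2 of the 33 member windows held an AP-1 motif and 17 a GC box. A TEAD motif (GGAATG on either strand) and a TATA motif (TATAAA on either strand), in 11.9% and 10.7% of all windows, were in none of these 3. A match of letters is a description of the window and not a site of binding.

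Levels between genes were compared as CPM per kb of merged exons. 31 members had a mean of at least 1 CPM over the 27 libraries and 11 had at least 100 CPM. ITGB5, the beta partner of ITGAV at vitronectin, was highest at a mean of 110 CPM per kb, followed by ITGA3 at 94.4 and ITGB1, the common beta chain, at 82.0. With the longest transcript in place of merged exons ITGB1 came first at 213 CPM per kb, then ITGA3 at 169 and ITGB5 at 162, so the order of these 3 depends on the length used. The laminin genes LAMC1, LAMB3 and LAMB2 followed at 39.2, 34.9 and 20.6 CPM per kb, then ITGA5 at 17.8. ITGA6, ITGA2, LAMA5, LAMA1 and LAMB1 lay between 10.2 and 11.1 CPM per kb, close to each other beside their ranges over groups. This order depends on the length as well. By the longest transcript, LAMB1 at 28.1 and ITGA5 at 26.2 CPM per kb lay above LAMB2 at 24.8. ITGAV was then at 21.2 in place of 8.73, and ITGA6, ITGA2, LAMA5 and LAMA1 lay between 11.0 and 15.6.

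At the other end, 7 members had means below 1 CPM. The leukocyte chains ITGAL and ITGAM did not exceed 7 and 25 counts in any library, ITGAD lay between 9 and 47 counts, and LAMB4, a little-used laminin beta gene, was at 0 counts in 20 of the 27 libraries. ITGB6, an epithelial beta chain, had 3 to 42 counts and ITGA2B, the platelet alpha chain, 5 to 95. ITGAL and LAMB4 passed the low-count filter in no comparison, so 36 members were tested in at least 1.

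**Figure D1:**
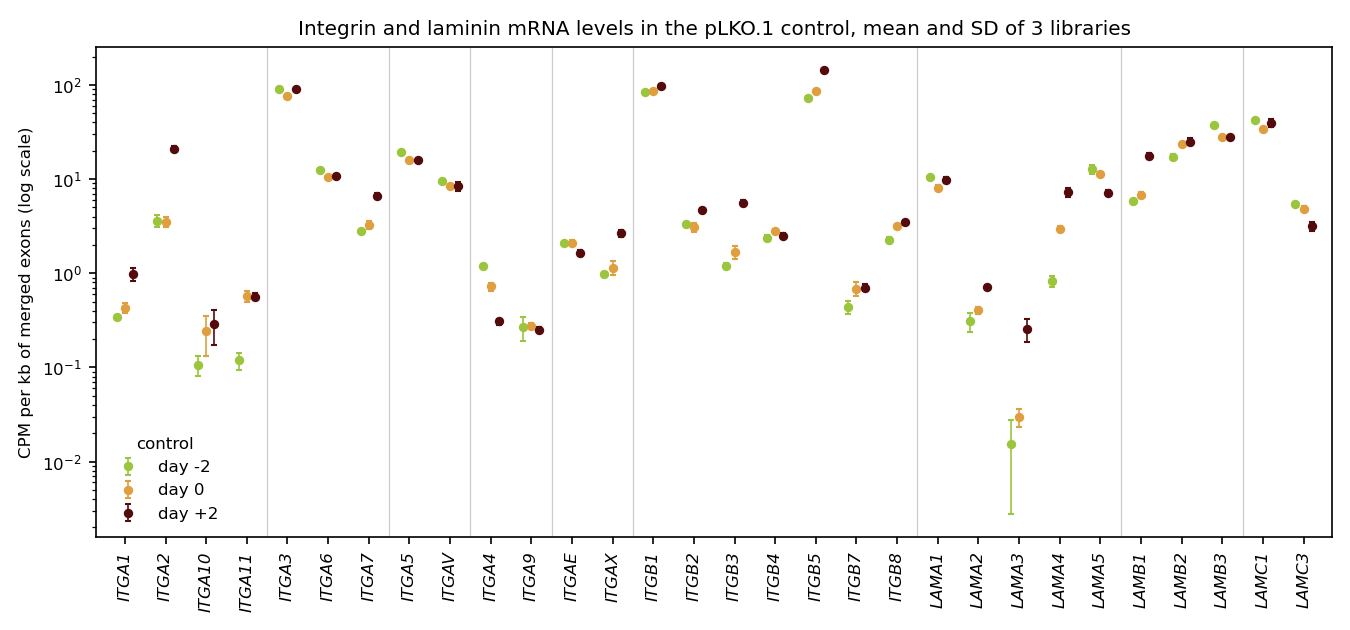
Levels of members with a mean of at least 1 CPM in the control line (log axis, CPM per kb of merged exons), with points for the mean and bars for the SD of 3 libraries on day -2, day 0 and day +2; grey lines separate the functional groups. ITGA3, ITGB1 and ITGB5 stay at the top on every day, while ITGA2, ITGB3, LAMA3, LAMA4 and LAMB1 are highest on day +2 and ITGA4 is lowest then.

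The question of how these genes moved as the culture filled was addressed first in the control. From day -2 to day +2, 19 members rose and 9 fell among 35 tested, at an adjusted p under 0.05 (edgeR's quasi-likelihood test, Benjamini-Hochberg adjustment over all genes tested). Of all genes tested, 56.8% passed, 28.1% higher and 28.6% lower. Among genes of at least 10 CPM, 71.4% passed, against 21 of the 25 members at that level. The median log2 fold change was 0.55 over members and 0.03 over all genes, and the median size of change was 0.81 over members and 0.41 over all genes.

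All 4 collagen-binding alpha genes rose. ITGA2 was at 24.2, 29.5 and 32.1 CPM in the control libraries of day -2, at 26.4, 32.1 and 25.5 on day 0, and at 178, 157 and 165 on day +2. The day -2 and day 0 libraries overlapped and all day +2 libraries lay far above both. Its log2 fold change was 2.56 ± 0.07 (SE) from day -2 to day +2 (adjusted p = 1.92e-20, edgeR) and it was not called between day -2 and day 0. ITGA1, of the widely used collagen receptor on mesenchymal cells, was at 6.58, 6.02 and 6.46 CPM on day -2, at 7.77, 9.02 and 7.09 on day 0, and at 15.4, 18.4 and 21.0 on day +2. Its log2 fold change was 1.53 ± 0.12, with 2.69% of its exon bases shared with PELO, which lies within it.

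ITGA11, whose product binds fibrillar collagen on fibroblasts and bone-forming cells, took its step earlier. It was at 1.30, 1.02 and 1.55 CPM on day -2, at 5.35, 7.0 and 6.19 on day 0, and at 6.05, 5.64 and 6.75 on day +2. The rise of 2.27 ± 0.21 to day +2 was thus complete on day 0, and the day 0 and day +2 libraries overlapped. ITGA10, of the cartilage receptor, had 17 to 107 counts in the control libraries and a log2 fold change of 1.43 ± 0.37.

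The laminin-binding alpha genes split. ITGA7, the chain prominent in muscle, rose from 25.8 ± 0.68 to 60.0 ± 3.96 CPM, by 1.22 ± 0.07. ITGA6 fell by 0.20 ± 0.05, from 83.4 ± 2.90 to 72.4 ± 2.52 CPM. ITGA3, the most abundant of the 3, was called lower from day -2 to day 0 and higher from day 0 to day +2, and its net log2 difference was -0.02 ± 0.04.

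Among the RGD-binding chains, ITGA8 was at 0, 4 and 0 counts in the order of the control replicates on day -2 and at 107 to 152 counts on day +2, when its level was 3.17 ± 0.46 CPM. Its mean over the series was 0.890 CPM, below the level set for named members, and it was singled out after its values were seen. ITGA5, the fibronectin receptor chain, fell by 0.27 ± 0.05 and ITGAV by 0.18 ± 0.06. The ITGAV call was lost without control day +2 replicate 2 or 3 (adjusted p up to 0.0684), since replicate 1 of that day, at 181 CPM, lay within the day -2 range. ITGA4, the chain of the receptor for VCAM-1 and fibronectin, fell most among the members tested. It was at 12.2, 13.1 and 12.5 CPM on day -2, at 7.79, 8.42 and 6.92 on day 0, and at 3.49, 3.31 and 3.02 on day +2, with no overlap between days, and its log2 fold change was -1.94 ± 0.13. Of its exon bases, 26.4% are shared with CERKL in the GENCODE annotation, where the counting may have discarded reads.

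Of the 8 beta genes, 6 rose and none fell. ITGB3, the beta chain of the vitronectin receptor and of the platelet receptor, was at 8.90, 7.77 and 7.87 CPM on day -2, at 13.4, 11.1 and 9.92 on day 0, and at 41.4, 37.1 and 36.0 on day +2. The 3 days did not overlap, and the change to day +2 was 2.22 ± 0.09. ITGB5 rose from 478 ± 20.5 to 948 ± 7.28 CPM (0.99 ± 0.05), ITGB8, which with ITGAV binds latent TGF-beta, rose by 0.63 ± 0.07, and ITGB1 rose by 0.20 ± 0.05 from 1234 ± 13.5 to 1410 ± 76.2 CPM. The leukocyte beta chain gene ITGB2 rose by 0.51 ± 0.07. ITGB7, another leukocyte beta chain, rose by 0.70 ± 0.23, a call lost without control day -2 replicate 1 (adjusted p = 0.0586), and 42.3% of its exon bases are shared with ZNF740. ITGB4, the partner of the ITGA6 chain in hemidesmosomes, and ITGB6 were not called, at 0.10 ± 0.09 and 1.10 ± 0.58.

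The leukocyte alpha chain ITGAX rose from 6.95 ± 0.41 to 18.8 ± 1.54 CPM (1.44 ± 0.11), and ITGAE, the chain of intraepithelial lymphocytes, fell by 0.33 ± 0.10. Because ITGB2, ITGB7 and ITGAX are best known from leukocytes, 7 leukocyte markers were examined. Their summed level was 1.14 to 1.25 CPM in the control libraries of day -2, 2.60 to 3.27 on day 0 and 3.73 to 4.40 on day +2. LAPTM5 carried most of it at up to 6.81 CPM over the series, PTPRC did not exceed 1.44 CPM, and CD3E had 1 count in 1 library.

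**Figure D2:**
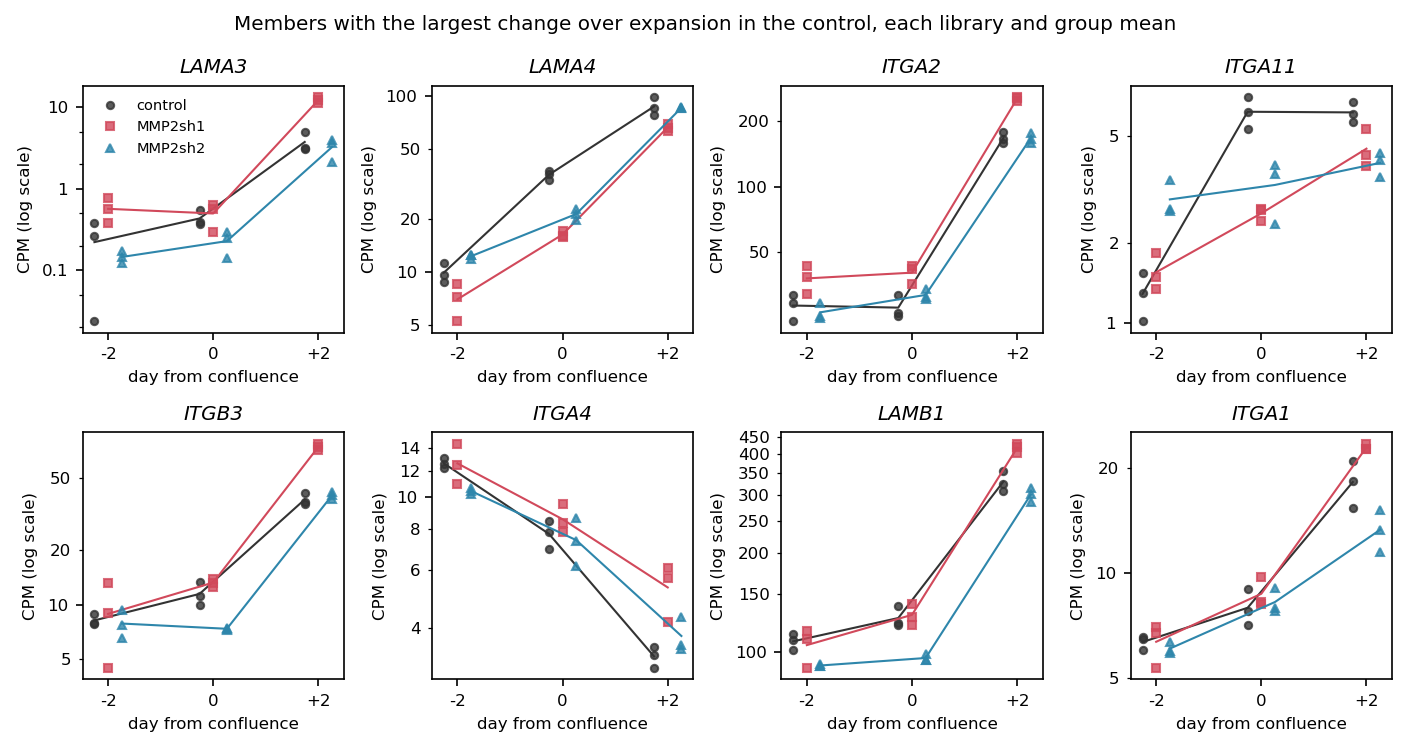
The 8 members with the largest change from day -2 to day +2 in the control, by day from confluence (log axes, CPM), with 1 point per library for the control (circles), sh1 (squares) and sh2 (triangles) and lines through group means. ITGA2, ITGA1 and LAMB1 step up after day 0, LAMA4 rises in both steps, ITGA4 falls in all 3 lines, and ITGA11 in the control is at 5.35 to 7.0 CPM on day 0, above both shRNA lines.

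The laminin genes changed in both directions. LAMA4, the alpha chain of vessel and mesenchymal basement membranes, was at 8.76, 9.66 and 11.3 CPM in the control on day -2, at 33.2, 37.7 and 36.1 on day 0, and at 98.3, 85.3 and 77.6 on day +2. Each day lay above the one before without overlap, and the log2 fold change to day +2 was 3.15 ± 0.09 (adjusted p = 1.26e-20, edgeR). LAMA3 was at 0.260, 0.0237 and 0.380 CPM on day -2, at 0.541, 0.387 and 0.366 on day 0, and at 4.91, 3.09 and 3.17 on day +2. It thus went from 1 to 15 counts a library to 126 to 173, a log2 fold change of 4.09 ± 0.42, but stayed far below the other laminin alpha genes. LAMA2, of the muscle laminin, rose by 1.22 ± 0.13.

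LAMA5, of the broadly spread basement membrane laminin, fell from 181 ± 19.7 to 103 ± 7.01 CPM (-0.81 ± 0.06), and LAMA1 was called lower to day 0 and higher to day +2, with a net of -0.08 ± 0.05. LAMB1 was at 102, 109 and 113 CPM on day -2, at 121, 138 and 123 on day 0, and at 354, 325 and 310 on day +2, a change of 1.62 ± 0.05 that came mostly after confluence. LAMB2 rose by 0.55 ± 0.06, called in the first step only, and LAMB3 fell by 0.41 ± 0.05. LAMC3 fell by 0.77 on the log2 scale and LAMC1 had a net difference of -0.10 ± 0.05. LAMA3 thus rose while LAMB3 fell.

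As shares of the summed CPM per kb of the 5 laminin alpha genes, LAMA4 went from 3.4% to 28.7% in the control and LAMA5 from 52.1% to 28.6%, while LAMA1 held 43.1% and 38.8%. Among the beta genes, LAMB1 went from 9.6% to 25.1% and LAMB3 from 62.0% to 39.6%. These shares rest on merged-exon lengths. With the longest transcript, the LAMB1 mean over the series was 28.1 CPM per kb in place of 10.2. LAMB2 was then at 24.8 and LAMB3 at 37.7. LAMB1 has 18592 merged exon bases but 6737 in its longest transcript, and LAMB3 has 4647 and 4305. In the control on day +2, LAMB1 was at 310 to 354 CPM and LAMB3 at 127 to 132. Per kb, LAMB3 was thus the higher of these on that day by merged exons, and LAMB1 by the longest transcript. mRNA shares give no count of assembled trimers.

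**Figure D3:**
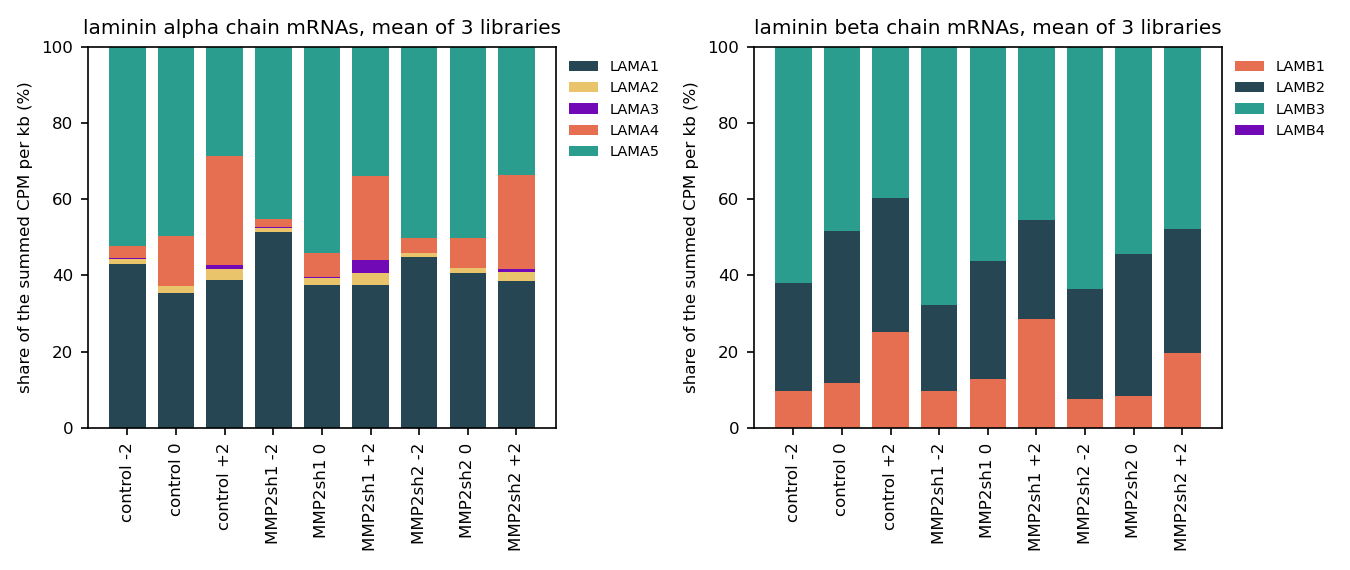
Shares of the summed CPM per kb of the laminin alpha genes (left) and laminin beta genes (right) in each of the 9 groups, as stacked bars from 0 to 100% of the mean of 3 libraries. LAMA4 takes 28.7% of the alpha sum in the control on day +2 against 3.4% on day -2, and LAMB1 widens on day +2 in all 3 lines.

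The step from day -2 to day 0 in the control held 14 higher and 9 lower members of 35, against 35.5% of all genes called, 16.4% higher and 19.1% lower. The step from day 0 to day +2 held 17 higher and 4 lower members, against 41.4% of all genes, 21.3% higher and 20.1% lower. 8 members were called higher in both steps (ITGA7, ITGA8, ITGB3, ITGB5, ITGB8, LAMA2, LAMA4 and LAMB1), and 6 in the second step with no call in the first (ITGA1, ITGA2, ITGAX, ITGB1, ITGB2 and LAMA3). ITGA3, LAMA1 and LAMC1 were lower at confluence and higher after it. Some of these step calls rested on single libraries. The first-step calls of ITGA7 and LAMA2 and the second-step call of ITGB8 were not made by DESeq2. They were lost without any control day -2 replicate or control day 0 replicate 2 or 3 (ITGA7, adjusted p up to 0.186), without control day -2 replicate 1 or control day 0 replicate 1 or 2 (LAMA2, up to 0.275), and without control day 0 replicate 3 or control day +2 replicate 1 or 2 (ITGB8, up to 0.200).

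In sh1, 21 members rose and 8 fell from day -2 to day +2 among 36 tested (all genes: 54.9% called, 27.3% higher and 27.7% lower), and in sh2, 18 rose and 8 fell of 36 (all genes: 54.7%, 27.7% higher and 27.1% lower). 16 members were called higher in all 3 lines and 6 lower in all 3, among the latter ITGA4, ITGA5 and LAMA5. ITGA6 was called lower in the control and higher in both shRNA lines. ITGA3 and LAMC1 were called higher in sh1 and lower in sh2. For LAMC1 the sh1 call was lost without sh1 day -2 replicate 1 or sh1 day +2 replicate 2 (adjusted p up to 0.138) and the sh2 call without sh2 day -2 replicate 2 or sh2 day +2 replicate 3 (up to 0.170). The ITGA5 call in sh1 was lost without replicate 2 or 3 of either day (up to 0.116), and the rise of ITGB7 in sh2 without sh2 day -2 replicate 1 or sh2 day +2 replicate 2 (up to 0.222).

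The shRNA lines were then compared with the control on each day, which asks how the genes differ when MMP-2 is depleted. All comparisons of a day share the control libraries of that day. The median size of log2 fold change over members lay between 0.15 and 0.29 in the 6 comparisons, against 0.81 for the control from day -2 to day +2. Over all genes it lay between 0.13 and 0.16, against 0.41, so smaller shRNA differences than expansion changes were not particular to the members.

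On day -2, sh1 had 5 higher and 6 lower members of 35 tested (all genes: 11.6% called, 5.42% higher and 6.14% lower) and sh2 had 5 higher and 5 lower of 34 (all genes: 11.0%, 4.71% higher and 6.33% lower). On day 0, sh1 had 4 higher and 6 lower of 35 (all genes: 16.8%, 8.26% higher and 8.58% lower) and sh2 had 5 higher and 7 lower of 34 (all genes: 12.9%, 7.07% higher and 5.81% lower). On day +2, sh1 had 14 higher and 2 lower of 35 (all genes: 14.8%, 7.68% higher and 7.11% lower) and sh2 had 7 higher and 3 lower of 35 (all genes: 6.32%, 2.89% higher and 3.43% lower). Well-expressed genes were called more often in general: among genes of at least 10 CPM, 21.3% were called in sh1 on day +2, against 14 of the 25 members at that level, and 9.09% in sh2, against 8 of 25. Without 1 library, the day -2 counts fell to as few as 5 of 35 in sh1 (without sh1 replicate 2) and 5 of 34 in sh2 (without control replicate 1), and the sh2 count of day +2 to 5 (without control replicate 3). In sh1 on day -2, 7 members stayed called without control replicate 2 or without control replicate 3, and 9 were called without sh1 replicate 1, the library that stood apart (6 higher and 3 lower). The summed level of the 8 mesenchymal and osteoblast lineage markers was also higher in sh1 on day +2, at 4156 to 4232 CPM against 3318 to 3475 in the control and 3354 to 3492 in sh2. 4 of the 6 tested were called higher in sh1 (SPARC, COL1A1, VIM and ALPL), and their part in the sh1 count of that day was not tested.

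**Figure D4:**
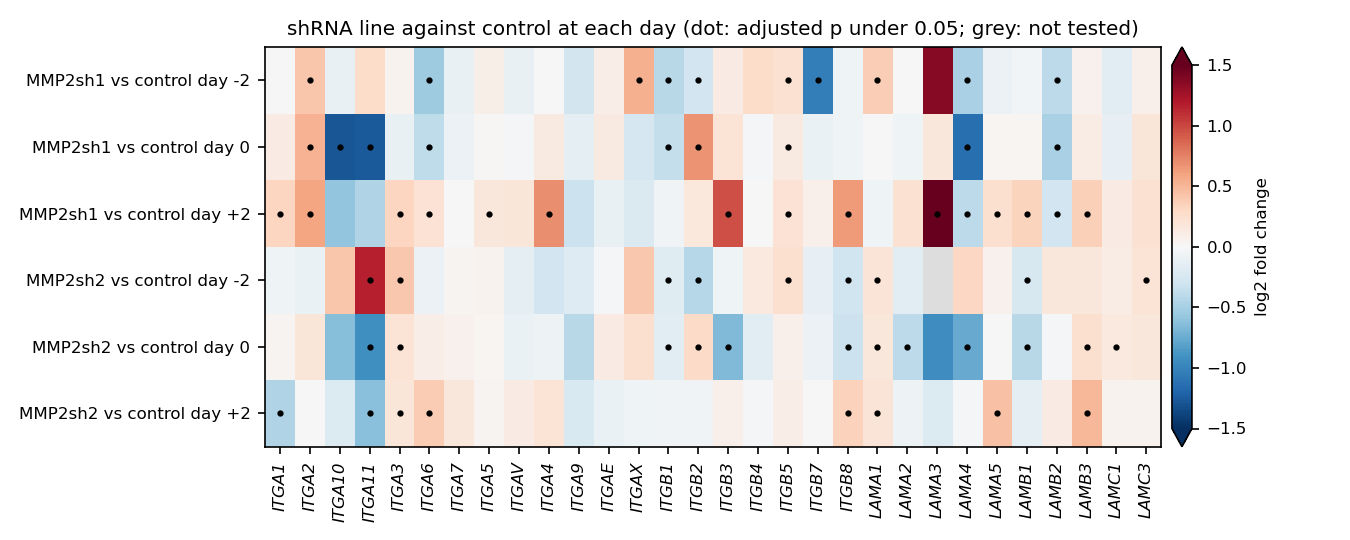
Log2 fold change of each shRNA line against the control on each day (colour scale from -1.5 to 1.5) for members with a mean of at least 1 CPM; a dot marks an adjusted p under 0.05 and grey a gene not tested. The sh1 row of day +2 has the most dots, most of them on red, LAMA4 is blue in sh1 on every day, and ITGA11 is blue in both lines on day 0.

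LAMA4 was lower in sh1 on all 3 days. Its levels were 5.25, 7.22 and 8.54 CPM on day -2, 16.1, 15.9 and 17.0 on day 0, and 66.1, 69.4 and 63.5 on day +2, below every control library of the same day. The log2 fold changes against the control were -0.49 ± 0.15, -1.13 ± 0.08 and -0.39 ± 0.07. The first was no longer called without control replicate 2 or 3 or sh1 replicate 1 or 2 (adjusted p up to 0.171). In sh2, LAMA4 was at 11.8, 12.6 and 12.5 CPM, then 22.9, 21.3 and 19.9, then 85.3, 84.8 and 86.7. It was lower than the control on day 0 only (-0.75 ± 0.08, adjusted p = 7.08e-09, edgeR), with values of 0.31 ± 0.12 on day -2 and -0.02 ± 0.07 on day +2. Between the shRNA lines, sh1 was lower than sh2 on each day, by 0.81 ± 0.14, 0.37 ± 0.09 and 0.37 ± 0.06 on the log2 scale.

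LAMB2, whose chain joins that of LAMA5 or LAMA4 in many adult basement membranes, was also lower in sh1 on all 3 days. It was at 73.3, 98.6 and 96.0 CPM on day -2 against 109, 117 and 126 in the control, at 107, 116 and 122 on day 0 against 159, 163 and 158, and at 154, 147 and 121 on day +2 against 186, 156 and 171. No library overlapped on any day, and the log2 fold changes were -0.39 ± 0.08, -0.48 ± 0.05 and -0.29 ± 0.07. The last was lost without control replicate 1 or sh1 replicate 3 (adjusted p up to 0.0626). In sh2, LAMB2 gave 0.17 ± 0.06, -0.03 ± 0.04 and 0.12 ± 0.06, none of them called, and sh1 was below sh2 on each day, by 0.56, 0.45 and 0.41 on the log2 scale.

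In sh2, the difference of ITGA11 from the control was of opposite sign on day -2 and on the later days. In sh1 it was at 1.49, 1.83 and 1.34 CPM on day -2, at 2.65, 2.69 and 2.41 on day 0, and at 3.89, 5.35 and 4.26 on day +2. In sh2 it was at 2.67, 2.62 and 3.43 CPM, then 3.92, 3.61 and 2.36, then 4.33, 4.09 and 3.52. On day 0 both lines lay below the 5.35 to 7.0 CPM of the control, by -1.26 ± 0.17 in sh1 and -0.93 ± 0.18 in sh2. On day -2 sh2 lay above the control (1.17 ± 0.27; a call that DESeq2 did not make) and sh1 overlapped it (0.28 ± 0.32). On day +2, sh2 was lower by 0.63 ± 0.16 on the log2 scale, a call lost without control replicate 3 or sh2 replicate 3 (adjusted p up to 0.0870), and sh1 gave -0.45 ± 0.17, not called. These libraries held 43 to 326 counts of ITGA11.

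ITGA2 was higher in sh1 on all 3 days. It was at 32.4, 43.3 and 38.4 CPM on day -2, at 42.0, 36.0 and 43.2 on day 0, and at 245, 256 and 254 on day +2, above every control library of its day, with log2 fold changes of 0.42 ± 0.10, 0.53 ± 0.08 and 0.59 ± 0.06. The first was lost without control replicate 1 or sh1 replicate 2 (adjusted p up to 0.0917). In sh2 the libraries, at 25.1, 25.5 and 29.3, then 30.7, 31.3 and 34.1, then 176, 158 and 165 CPM, gave -0.10 ± 0.09, 0.18 ± 0.08 and -0.00 ± 0.06, none called. The sh1 libraries lay above those of sh2 by 0.52 ± 0.10, 0.35 ± 0.07 and 0.59 ± 0.06.

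ITGB1 was lower in both lines before and at confluence. In the control it was at 1246, 1219 and 1236 CPM on day -2 and at 1264, 1289 and 1202 on day 0. In sh1 it was at 896, 945 and 937, then 972, 978 and 976, and in sh2 at 1100, 1139 and 1024, then 1171, 1091 and 1137. The log2 fold changes were -0.41 ± 0.05 and -0.36 ± 0.03 in sh1 and -0.19 ± 0.05 and -0.16 ± 0.04 in sh2. On day +2 the libraries of all 3 lines lay between 1303 and 1496 CPM, overlapping, with differences of -0.05 ± 0.05 and -0.06 ± 0.05. The sh2 call of day -2 was lost without control replicate 1, 2 or 3 (adjusted p up to 0.110).

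ITGA6, which pairs with the chains of ITGB1 or ITGB4, changed sign with the day in sh1. It was at 56.8, 58.8 and 57.3 CPM on day -2 and at 53.3, 53.3 and 54.1 on day 0, below the 81.2 to 86.7 and 68.3 to 71.1 CPM of the control (-0.53 ± 0.06 and -0.38 ± 0.05). On day +2 it was at 85.0, 82.8 and 85.0 against 73.9, 69.5 and 73.9 CPM in the control (0.22 ± 0.06; lost without control replicate 2, adjusted p = 0.108). In sh2 it was at 77.7, 80.1 and 77.9 CPM, then 73.9, 73.1 and 78.9, then 97.9, 92.8 and 93.3, and was called on day +2 only (0.39 ± 0.06).

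ITGB2 moved alike in both lines on the first 2 days. On day -2 it was at 19.6, 19.8 and 20.2 CPM in sh1 and 16.9, 19.6 and 17.4 in sh2, under the 22.5, 24.4 and 25.8 of the control, and on day 0 at 36.4, 35.7 and 35.6 and at 25.9, 27.1 and 30.0, over its 20.4, 21.6 and 25.5. The log2 fold changes were -0.28 ± 0.09 and -0.43 ± 0.09, then 0.67 ± 0.08 and 0.29 ± 0.09. On day +2 all 9 libraries lay between 31.6 and 40.1 CPM, with 0.16 ± 0.07 in sh1 and -0.05 ± 0.08 in sh2, neither called. The day -2 call in sh1 was lost without control replicate 2 or 3 or any of the sh1 replicates (adjusted p up to 0.149), and the day 0 call in sh2 without control replicate 1 or 2 or sh2 replicate 2 or 3 (up to 0.157). ITGB2-AS1 shares 4.15% of the ITGB2 exon bases. The summed leukocyte markers on day 0 were at 2.50 to 4.39 CPM in sh1 and 1.40 to 2.91 in sh2, against 2.60 to 3.27 in the control.

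ITGB8 was higher in both lines on day +2. The control was at 33.7, 32.4 and 37.0 CPM on day -2, at 49.4, 49.4 and 44.2 on day 0, and at 56.1, 53.3 and 49.4 on day +2. In sh1 it was at 29.3, 34.9 and 34.1, then 46.4, 44.5 and 45.6, then 71.3, 85.8 and 90.8 CPM, and in sh2 at 27.3, 26.0 and 30.6, then 38.7, 35.5 and 41.0, then 69.6, 65.5 and 66.9. The day +2 log2 fold changes were 0.64 ± 0.08 and 0.35 ± 0.07. In sh2 it was lower on day -2 (-0.30 ± 0.08; lost without control replicate 1 or 3 or sh2 replicate 1 or 2, adjusted p up to 0.104) and on day 0 (-0.33 ± 0.07).

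On day +2, LAMA3 and ITGB3 were higher in sh1 and overlapped the control in sh2. LAMA3 was at 12.2, 13.2 and 11.0 CPM there, against 3.09 to 4.91 in the control and 3.63, 3.95 and 2.10 in sh2, a log2 fold change of 1.71 ± 0.16 in sh1 (adjusted p = 2.85e-09, edgeR). ITGB3 was at 71.4, 74.8 and 77.8 CPM, against 36.0 to 41.4 in the control and 41.8, 40.5 and 38.5 in sh2, a log2 fold change of 0.97 ± 0.07. In sh2 ITGB3 was lower on day 0, at 7.27, 7.41 and 7.36 CPM (-0.66 ± 0.13). ITGA1 differed in opposite directions on day +2, at 22.7, 22.7 and 23.5 CPM in sh1 (0.33 ± 0.10) and 15.1, 13.3 and 11.5 in sh2 (-0.46 ± 0.11), around the 15.4 to 21.0 CPM of the control. The first was lost without control replicate 1 or 2 or sh1 replicate 2 or 3 (adjusted p up to 0.154) and the second without control replicate 3 or sh2 replicate 3 (up to 0.117).

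Of the other members, ITGB5 was higher in sh1 on all 3 days (0.22 ± 0.06, 0.14 ± 0.04 and 0.21 ± 0.05) and in sh2 on day -2 (0.24 ± 0.05). The first was lost without control replicate 1 or 2 or sh1 replicate 2 or 3 (adjusted p up to 0.114), the second without sh1 replicate 2 (0.0670), and the sh2 call without control replicate 1 (0.0505). ITGA3 was higher in sh2 on all 3 days, by 0.41 ± 0.05, 0.20 ± 0.04 and 0.18 ± 0.05, the last lost without control replicate 2 or 3 or sh2 replicate 1 or 2 (up to 0.0916). It was higher in sh1 on day +2, by 0.32 ± 0.05. LAMB3 was higher on day +2 in both, by 0.35 ± 0.05 in sh1 and 0.50 ± 0.06 in sh2. LAMA5 was higher on day +2 in sh2 by 0.44 ± 0.07. In sh1 its 0.24 ± 0.07 was lost without control replicate 2 or 3 or sh1 replicate 1 or 2 (up to 0.171), and its libraries overlapped.

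LAMA1 gave 0.36 ± 0.06 in sh1 on day -2 and between 0.18 and 0.19 in sh2 on every day, each sh2 call being lost without at least 1 library: day -2 without any control replicate or sh2 replicate 2, day 0 without control replicate 1 or 3 or sh2 replicate 1 or 2, and day +2 without control replicate 2 or 3 or sh2 replicate 1 or 2 (adjusted p up to 0.372). Among members of few counts, ITGA8 was lower in sh2 on day +2, at 0.411, 1.39 and 1.04 CPM against 3.04, 2.80 and 3.68 in the control. Its log2 difference, 1.74 in size, was the largest called in that comparison. ITGA10 was lower in sh1 on day 0 by 1.28, the largest called there, at 0.645, 0.443 and 0.772 CPM against 1.23, 1.01 and 2.29. 11 members were called in none of the 6 comparisons: ITGA2B, ITGA7, ITGA9, ITGAD, ITGAE, ITGAL, ITGAM, ITGAV, ITGB4, ITGB6 and LAMB4.

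Of 7 epithelial markers, 6 were tested on day -2, where KRT8 and KRT18 were called higher in sh1 and KRT8 in sh2, and none lower. The median log2 fold change over those tested was -0.01 in sh1 and -0.05 in sh2. The summed level of the 7, nearly all KRT8 and KRT18, was 492 to 532 CPM in the control, 695 to 762 in sh1 and 607 to 691 in sh2. On day +2 it was 377 to 400.2, 410 to 423 and 407 to 411 CPM. CDH1 did not exceed 2.54 CPM and TP63 1.20 CPM in any library, but 4 or 5 of the 7 had a mean of at least 1 CPM in each group. The part of this list in the laminin values was not tested.

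Whether expansion itself ran differently in a shRNA line was tested as the difference between its change from day -2 to day +2 and that of the control. In sh1, 13 members had a higher and 2 a lower change among 36 tested (all genes: 7.40% called, 4.52% higher and 2.88% lower). In sh2, 6 were higher and 1 lower of 36 (all genes: 4.98%, 2.71% higher and 2.28% lower). ITGA6, ITGAV, ITGB8 and LAMB3 were called in both, against the same control libraries. The ITGAV calls were lost without any control day -2 replicate and without control day +2 replicate 2 or 3, among others (adjusted p up to 0.128 in sh1 and 0.166 in sh2), and the LAMB3 call in sh1 without any control day -2 replicate, control day +2 replicate 2 or 3, sh1 day -2 replicate 1 or sh1 day +2 replicate 2 (up to 0.0860). The sh1 count moved with single libraries: it fell to 6 without control day +2 replicate 3, to 7 without control day +2 replicate 2, to 8 without sh1 replicate 2 of day -2 or of day +2, and to 9 without control day -2 replicate 3. Without sh1 day -2 replicate 1, which stood apart, it was 10 (7 higher and 3 lower). The sh2 count lay between 5 and 7 in such fits.

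ITGA6 had a difference of 0.75 ± 0.08 in sh1 (adjusted p = 2.71e-07, edgeR) and 0.47 ± 0.08 in sh2 (0.000211). From the values above, it fell in the control while it rose in both shRNA lines. ITGB8 followed with 0.71 ± 0.12 and 0.65 ± 0.10, rising in every line but less in the control. ITGB1 gave 0.37 ± 0.07 and ITGB2 0.45 ± 0.11 in sh1.

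ITGA11 had the largest difference in sh2, -1.80 ± 0.28: it rose by 2.27 in the control, and in sh2 its change of 0.46 ± 0.21 was not called. ITGAX rose less in sh1 than in the control (-0.74 ± 0.16), from 9.23, 10.4 and 10.4 CPM to 18.7, 15.9 and 14.1. The summed leukocyte markers of sh1 lay at 1.90 to 2.83 CPM on day -2 and 6.16 to 7.34 on day +2, and their part in the ITGAX and ITGB2 values was not tested. ITGB3 had 0.84 ± 0.24 in sh1, and 0.54 without sh1 day -2 replicate 1. Its sh1 libraries of day -2 were spread from 4.46 through 8.95 to 13.2 CPM, DESeq2 did not call it, and it was lost without control day -2 replicate 1, control day +2 replicate 2 or 3, sh1 day -2 replicate 2 or sh1 day +2 replicate 3 (adjusted p up to 0.0901). ITGB7, at 0.758, 0.927 and 1.15 CPM in sh1 on day -2 and 2.80, 4.07 and 3.11 on day +2, had 1.12 ± 0.35 with an adjusted p of 0.0494 (edgeR), which 10 of the 12 fits without 1 library did not keep: it held only without sh1 day -2 replicate 3 or sh1 day +2 replicate 1 (up to 0.161 in the others).

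**Figure D5:**
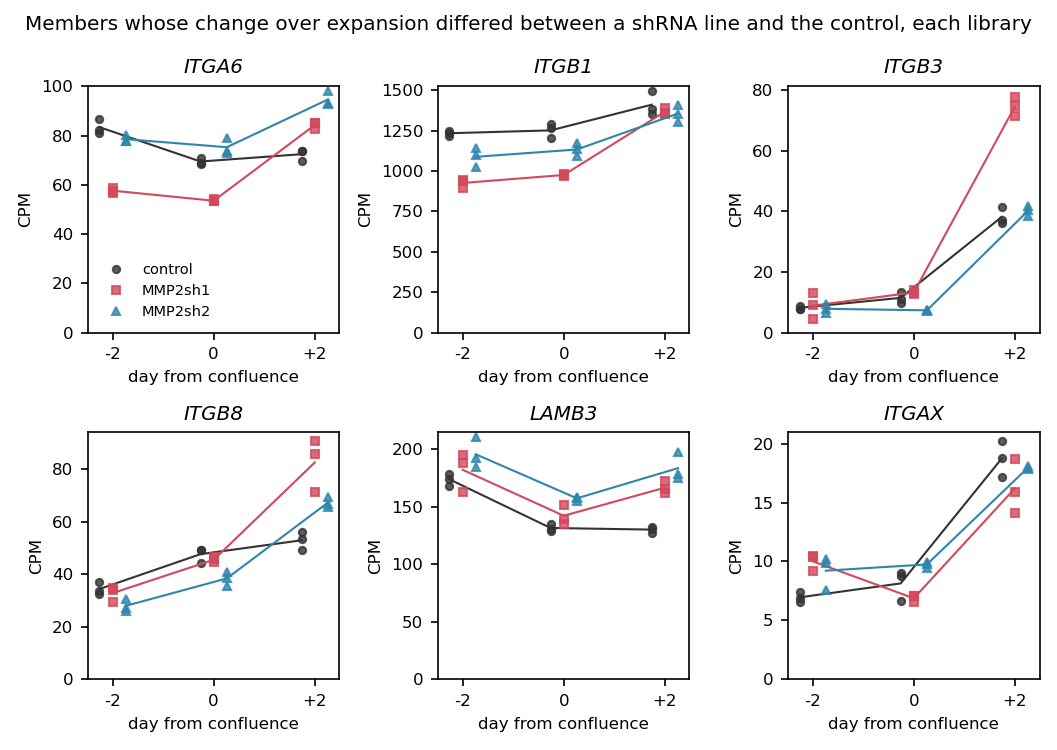
CPM of 6 members called in an expansion difference, by day from confluence (linear axes from 0), with 1 point per library for the control (circles), sh1 (squares) and sh2 (triangles) and lines through group means. ITGA6 falls in the control and ends highest in sh2, ITGB1 starts lower in sh1 and meets the control on day +2, ITGB3 ends at 71.4 to 77.8 CPM in sh1, and ITGAX rises less in sh1 than in the control.

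The shRNA lines were also set against each other. On day -2, sh1 had 2 higher and 7 lower members than sh2 of 34 tested (all genes: 10.7% called, 5.01% higher and 5.69% lower), on day 0, 7 higher and 9 lower of 35 (all genes: 18.5%, 8.90% higher and 9.62% lower), and on day +2, 9 higher and 3 lower of 35 (all genes: 7.86%, 4.59% higher and 3.27% lower). ITGA2 was among those higher on day -2. LAMB1 was higher in sh1 than in sh2 on day 0 by 0.45 ± 0.05, at 121, 128 and 140 CPM against 99.1, 94.9 and 94.6. The control of that day, at 121, 138 and 123 CPM, overlapped sh1 and lay above sh2. On day +2 LAMB1 was higher in sh1 than in sh2 by 0.47 ± 0.05, at 419, 429 and 402 CPM against 301, 316 and 285. The control was then at 354, 325 and 310 CPM, below sh1 and overlapping sh2.

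Genes that work with integrins and laminins gave the following counts. Of 26 focal adhesion adaptors and kinases, which couple integrins to actin, 6 rose and 17 fell from day -2 to day +2 in the control (all genes: 28.1% higher and 28.6% lower). FERMT1 (a kindlin, which activates integrins) went from 15.3 to 4.29 CPM and LIMS2 (a partner of integrin-linked kinase) from 18.3 to 5.50 CPM. The list's median log2 fold change was -0.22, below the 0.55 of the members. Against the control, sh1 had 3 higher and 2 lower of the 26 on day -2 (all genes: 5.42% and 6.14%), 2 and 9 on day 0 (8.26% and 8.58%), and 8 and 4 on day +2 (7.68% and 7.11%). In sh2 the counts were 9 and 1 (4.71% and 6.33%), 5 and 3 (7.07% and 5.81%), and 1 and 0 (2.89% and 3.43%). LIMS1 was at 124 CPM in both lines on day -2, against 167 in the control.

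Of 18 basement membrane partners and other laminin receptors, 16 were tested from day -2 to day +2 in the control, where 8 rose and 6 fell (all genes: 28.1% and 28.6%). COL4A4 fell from 13.5 to 2.44 CPM and COL4A5 rose from 9.67 to 25.4 CPM, and both encode collagen IV chains. In sh1, 4 were lower and none higher than the control on day -2 and on day 0, of 16 tested (all genes: 6.14% and 8.58% lower). In sh2, 5 were higher and none lower on day -2, and 6 higher and 1 lower on day 0 (all genes: 4.71% and 7.07% higher). DAG1, which encodes the laminin receptor dystroglycan, was lower in sh1 on day -2 (-0.49 ± 0.07) and on day 0, at 214 CPM against 308 in the control. On day +2, sh1 had 3 higher and 3 lower of 17 (all genes: 7.68% and 7.11%) and sh2 had 2 higher and 1 lower of 16 (all genes: 2.89% and 3.43%).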

How the data were processed

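Poly(A) RNA of 27 U2OS libraries, 3 for each of 9 groups of line and day, had been sequenced. Per the labels and the study's methods, the authors used Trim Galore 0.6.0 for trimming and STAR 2.7.3a for alignment to hg19, and deposited raw gene counts from HTSeq 2.0.0 (exons, union mode, no strand, minimum alignment quality 10). The summary lines without a gene, 16.8 to 19.1% of all entries, were left out. Counts on genes had a median of 40075178 per library. Reads that overlap 2 genes are discarded by such counting, which can lower ITGB7, ITGA4 and other overlapping members. The overlaps given here come from GENCODE, and whether they are the same in the annotation used for the deposited counts was not checked.

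Each comparison was fitted on its own 6 libraries (12 for a difference in expansion) with edgeR 4.0.16 in R 4.3.3: filterByExpr with a minimum count of 10 and total of 15, TMM scaling and the quasi-likelihood test. P-values were adjusted over all genes tested (Benjamini-Hochberg) and called at 0.05, and SEs were taken as the absolute log2 fold change over the root of the F statistic. Printed CPM use TMM factors over all 27 libraries, and lengths come from the GENCODE annotation on GRCh37. The study describes the 3 libraries of a group as biological replicates made independently. The members and lists were chosen with earlier results of these data known. Values in every library are given for members of at least 1 CPM on average: the 8 with the largest change over expansion in the control, the 8 with the largest mean size of change among those called alike on all 3 days of a line or in both lines on a day, and the 6 with the largest difference in expansion. Alternatives were DESeq2 1.42.0, other scaling, other filters, a replicate block, 1 fit of all libraries, the longest transcript as length, and each library left out in turn. Values of 1 member and 1 marker are not reported here, though counts over all members include them. The scripts were tested on simulated data.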

Additional observations from a re-analysis of the deposited data

Results flagged for a closer look

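The change from day -2 to day +2 differed between a shRNA line and the control, by the interaction term of edgeR's quasi-likelihood model, for the following members, given as differences of log2 fold change (shRNA line minus control). In sh1 the integrin alpha genes ITGA3, ITGA4, ITGA6 and ITGAV gave 0.27, 0.70, 0.75 and 0.30, and ITGAX gave -0.74. The integrin beta genes ITGB1, ITGB2, ITGB3, ITGB7 and ITGB8 gave 0.37, 0.45, 0.84, 1.12 and 0.71. The laminin genes LAMB1, LAMB3 and LAMC1 gave 0.37, 0.29 and 0.29, and LAMA1 gave -0.43.

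In sh2 the values were -1.80 for ITGA11, 0.47 for ITGA6, 0.26 for ITGAV, 0.65 for ITGB8, 0.37 for LAMA5 and 0.33 for LAMB3. The calls of ITGA6, ITGAX, ITGB1, ITGB2, ITGB8 and LAMA1 in sh1 and of ITGA11, ITGA6, ITGB8 and LAMB3 in sh2 were kept in each of the 12 fits without 1 library. The others were lost in at least 1 such fit, LAMB1 only without control day +2 replicate 3 (adjusted p = 0.0637, edgeR). Single values far from their group were not tested for in groups of 3 libraries. Replicate 1 of sh1 on day -2, which stood apart over all genes, enters every sh1 value above, and without it ITGA3, ITGAV, ITGB7, LAMB3 and LAMC1 were no longer called.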

How the results depend on the processing

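The 255 pairs of a member and a comparison that were called were each looked up in every other fit of that comparison. With another tool, scaling, filter or model this gave 1518 values, 1 for each pair and setting, of which 38 lost the call. Without 1 library it gave 1662 values, of which 237 lost the call. No direction turned in any of them, and 191 pairs kept their call in every fit that held their gene. One fit of all 27 libraries called 14 members between sh1 and sh2 on day -2 in place of 9, and the cause was not tested. Without 1 library the members called against the control numbered 5 to 9 for sh1 on day -2 (11 with all), 5 to 11 for sh2 on day -2 (10), 5 to 11 for sh2 on day +2 (10) and 6 to 14 for the sh1 difference in expansion (15). For the other comparisons the count stayed within 1.5 times its value with all libraries. Samples with the same replicate number did not deviate together: correlations of their deviations from group means lay between -0.075 and 0.132 over 54 distinct pairs, so the numbers were not taken as pairs. The fit with the replicate number as a block kept 248 of the 255 calls and lost 7. It also added calls, most of them between sh1 and sh2. There it called 12 members on day -2 in place of 9, and 16 on day +2 in place of 12. With the longest transcript in place of merged exons, 26 members had at least 1 CPM per kb in place of 23. Depth limits the members below 1 CPM, for which few counts stand behind a value.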
